A study of Homo sapiens with 9 samples.

Results

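The response that both CDK7 inhibitors of the series had in common was measured in FaDu cells, an established line from a squamous cell carcinoma of the hypopharynx, by sequencing poly(A)-selected RNA. The cells had been treated with samuraciclib at 250 nM, with YKL-5-124 at 250 nM or with the vehicle, DMSO, alone, in 3 groups of 3 libraries that the study describes as biological replicates. All 9 libraries of the series entered the comparison, 6 of them from cells given an inhibitor and 3 from vehicle-treated cells. The labels give wild-type genotype and 1 batch for every library. They give a treatment of 48 h in one place and of 72 h in another, so the labels alone leave the duration uncertain. The study's paper states 48 h. The comparison was the mean log2 level of both inhibitor groups minus that of the DMSO group, so each compound weighed the same whatever the spread of its libraries. It describes 1 cell line at 1 dose and 1 time.

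Cell cycle kinases need a phosphate on their activation segment to be fully active, and CDK7, bound to the proteins of CCNH and MNAT1, is the enzyme that puts it there. These proteins are also the kinase module of TFIIH, a general transcription factor that opens promoter DNA and whose kinase phosphorylates the tail of RNA polymerase II as transcription starts. Phosphorylation of the retinoblastoma protein by the cyclin D kinases releases the E2F factors, which transcribe genes of DNA replication, while genes of mitosis are read later in the cycle under MYBL2, FOXM1 and the DREAM complex. Of the compounds, only YKL-5-124 forms a covalent bond with the kinase, while samuraciclib binds reversibly.

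Of 58929 genes in the table, 16065 were measured well enough to be tested. Levels are given as CPM, read counts brought to an equal library size with TMM factors, and a change without a unit is a log2 fold change ± SE, positive where the inhibitor groups were higher. A gene was called where edgeR's quasi-likelihood test gave a Benjamini-Hochberg adjusted p below 0.05 with a log2 fold change of more than 0.5 in either direction, and "rose" and "fell" are used of called genes. The libraries held 18096180 to 28018126 counts. The share of counts held by genes of the cytosolic ribosome was highest with DMSO (5.78% to 6.19%), lower after samuraciclib (4.17% to 4.501%) and lowest after YKL-5-124 (3.11% to 3.39%). RN7SL2, which encodes 7SL RNA, was at 24.9 to 59.3 CPM in YKL-5-124 2, samuraciclib 2 and DMSO 3 and at 696 to 981 CPM in the other 6. All 12 squamous epithelial markers passed the filter on low counts, with a summed level of 6103 to 7443 CPM over the 9 libraries. Of the markers of other cell types, 1 of 10 fibroblast genes, 4 of 8 endothelial genes and 2 of 12 leukocyte genes passed, with summed levels of at most 5.96, 59.2 and 5.40 CPM.

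With the inhibitors, 1612 genes rose and 1534 fell, together 3146 or 19.6% of the 16065 tested (10.0% higher and 9.55% lower). Among them were 1044 and 1182 of 12874 protein-coding genes. Genes of DNA replication and mitosis, the cytosolic ribosome, small nucleolar RNA hosts, immediate early factors and interstitial collagenases were on the lower side, and polyadenylated histone transcripts, contractile genes and adhesion genes on the higher side. Most changes were moderate: the median called rise was 0.85 and the median called fall -0.73, and 613 rises and 348 falls exceeded a log2 change of 1. In 75.7% of the rises and 86.9% of the falls all 6 inhibitor libraries lay on one side of all 3 DMSO libraries, a separation that 37.9% of all genes tested showed in either direction (17.6% higher and 20.3% lower). With library size alone as the scale, the median of all genes moved from 0.009 to 0.103, and 2155 genes were called higher and 1099 lower, so that rises made up 66.2% rather than 51.2% of the calls. Counts are relative to each library, so fewer cells in a given phase of the cycle and less of a transcript per cell cannot be told apart here.

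**Figure D1:**
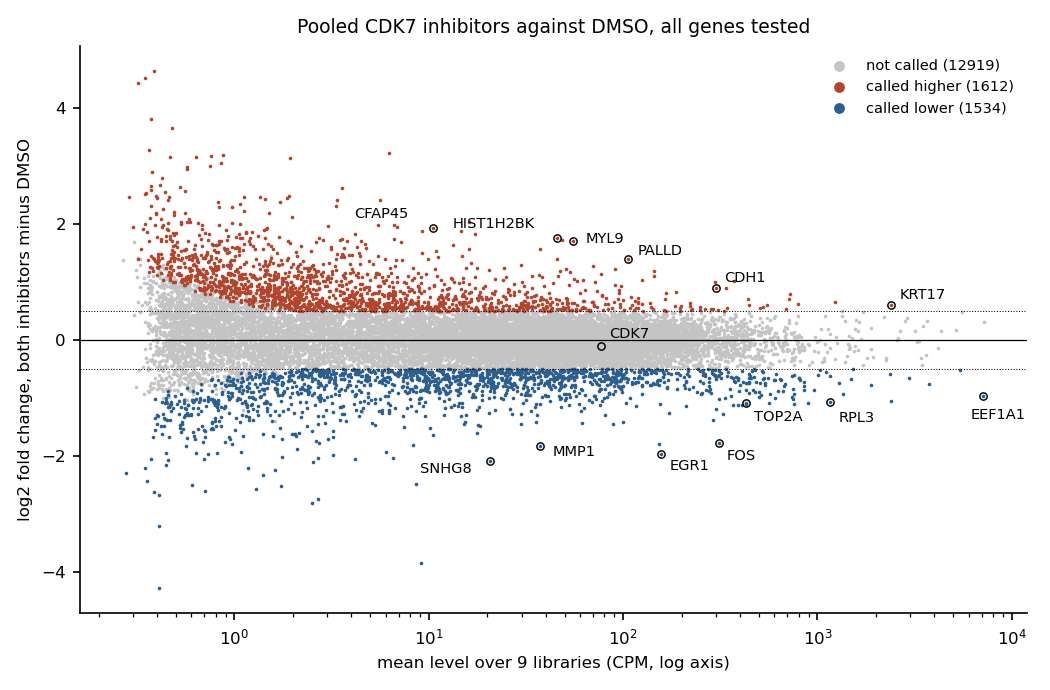
Log2 fold change of both inhibitors minus DMSO (vertical axis) against the mean level over the 9 libraries in CPM (horizontal log axis) for each of the 16065 genes tested, with called genes in color and dotted lines at the fold threshold of 0.5. The 1612 rises lie mostly at low levels, whereas falls reach the most abundant transcripts such as EEF1A1 and RPL3, and CDK7 sits near 0.

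Rises and falls differed in how abundant the genes were. The median level was 2.62 CPM for genes that rose and 11.9 CPM for genes that fell, against 16.3 CPM for all genes tested. Among the 2373 genes of at least 100 CPM, 57 (2.4%) rose and 225 (9.48%) fell, while among the 4599 genes between 1 and 10 CPM, 864 (18.8%) rose and 554 fell. Precision moved with level, the median SE being 0.0427 above 100 CPM and 0.17 between 1 and 10 CPM, so a low gene had to change more to be called. Of genes that are not protein-coding 28.8% were called, against 17.3% of protein-coding genes. Antisense genes stood out by direction, with 218 of 917 higher and 55 lower, and processed pseudogenes went the other way, with 36 of 464 higher and 107 lower. Of the 69 processed pseudogenes named for a ribosomal protein gene, 48 fell and 2 rose, and reads of these copies can be shared with their parent genes.

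**Figure D2:**
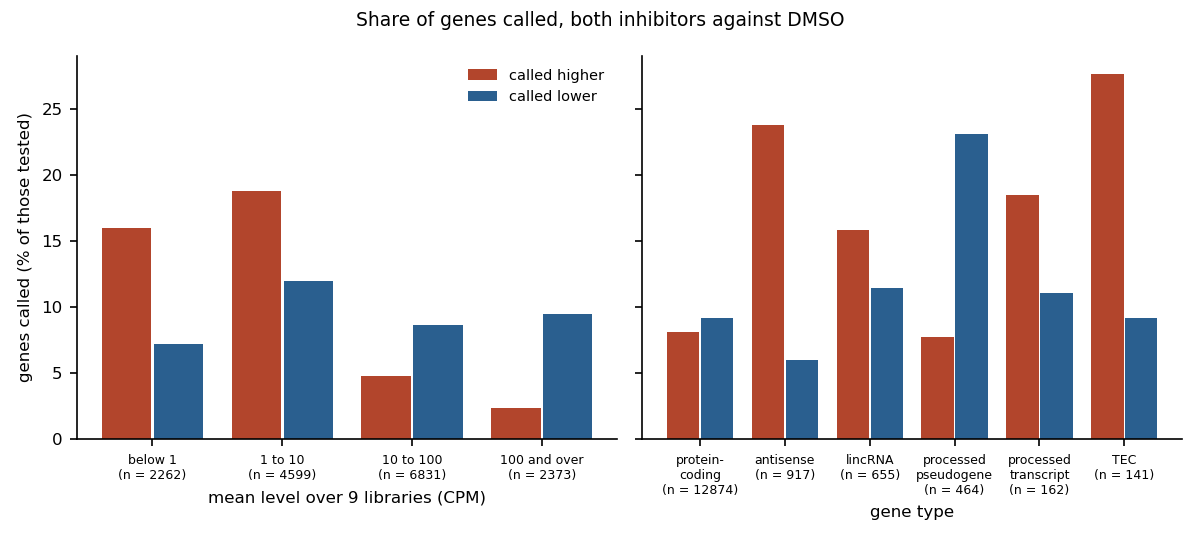
Percent of the genes tested that were called higher or lower with both inhibitors against DMSO, by mean level in CPM (left) and by gene type for protein-coding genes and the more frequent other types (right); TEC marks transcripts listed as to be experimentally checked, and n is the number of genes tested. Falls take a similar share of genes at 10 to 100 CPM and above it, 8.67% and 9.48%, whereas the share of rises drops to 2.4%.

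The promoters of 4 called genes are shown because each holds the element for which its gene group is known: serum response elements in an immediate early gene, a TATA box and CCAAT boxes in a histone gene, the cell cycle homology region in a mitotic gene and an E2F site in a replication gene. Each is the 250 bases before the gene start on the gene's own strand, from RefSeq on GRCh38.p14, with matches to the motifs searched in capitals. The motifs, sought on both strands, were GCGGGAA for E2F, TTTGAA for the cell cycle homology region, CCAAT for NF-Y, TATAAA for the TATA box, TGANTCA for AP-1, TGACGT for the cyclic AMP element and the CArG box of the serum response factor. They lie at chr5:138465229-138465478 (EGR1, plus strand), chr6:27146856-27147105 (HIST1H2BK, minus strand), chr1:43358731-43358980 (CDC20, plus strand) and chrX:24693668-24693917 (POLA1, plus strand). Gene starts are those of RefSeq and can differ from the ends of the table's gene models.
EGR1: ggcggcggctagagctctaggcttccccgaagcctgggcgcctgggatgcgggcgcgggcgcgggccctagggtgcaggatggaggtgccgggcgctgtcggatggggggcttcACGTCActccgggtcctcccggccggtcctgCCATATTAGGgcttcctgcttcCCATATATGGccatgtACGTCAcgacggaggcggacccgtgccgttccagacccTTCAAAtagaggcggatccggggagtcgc
HIST1H2BK: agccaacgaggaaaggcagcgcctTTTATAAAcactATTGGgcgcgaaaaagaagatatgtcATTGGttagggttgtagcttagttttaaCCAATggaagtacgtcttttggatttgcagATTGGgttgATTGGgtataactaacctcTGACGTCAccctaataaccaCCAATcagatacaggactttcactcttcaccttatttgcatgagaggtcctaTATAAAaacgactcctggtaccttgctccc
CDC20: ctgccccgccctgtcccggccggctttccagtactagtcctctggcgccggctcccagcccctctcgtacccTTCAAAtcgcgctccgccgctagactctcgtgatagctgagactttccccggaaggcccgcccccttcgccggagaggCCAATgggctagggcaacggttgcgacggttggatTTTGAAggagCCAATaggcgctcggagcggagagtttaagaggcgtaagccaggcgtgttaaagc
POLA1: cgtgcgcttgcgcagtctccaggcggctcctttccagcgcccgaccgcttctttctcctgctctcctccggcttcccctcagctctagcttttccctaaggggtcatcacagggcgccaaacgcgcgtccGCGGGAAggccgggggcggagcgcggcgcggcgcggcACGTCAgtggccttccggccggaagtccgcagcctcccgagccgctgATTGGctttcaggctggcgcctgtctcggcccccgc
In the EGR1 promoter CArG boxes end 96 and 74 bases before the start, and a cyclic AMP element stands before the first and after the second. In HIST1H2BK a TATA box ends 25 bases before the start, behind 6 CCAAT boxes. In CDC20 a forward cell cycle homology region ends 60 bases before the start, between CCAAT boxes, and in POLA1 an E2F site ends 114 bases before it.

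The target and its complex changed little at the level of RNA. CDK7 (ENSG00000134058, chromosome 5, 69234795 to 69277430, GRCh38) stood at 76.7, 86.3 and 77.2 CPM with DMSO and between 68.5 and 81.9 CPM with a median of 74.2 with the inhibitors, ranges that overlap (-0.10 ± 0.050, adjusted p = 0.100). Its partners CCNH (-0.21) and MNAT1 (-0.076 ± 0.052) did not pass the thresholds either. CCNH shares its locus with RASA1 on the other strand over 77.7% of its span, and the counting is not stated to use strand. Of the 9 TFIIH and CDK7 complex genes tested, 1 (11.1%) fell, near the 9.55% of all genes called lower. It was GTF2H3 (-1.08 ± 0.047), the gene of the p34 subunit. Its level was 155, 163 and 162 CPM with DMSO and between 65.8 and 85.7 CPM with a median of 76.95 with the inhibitors. Of 41 genes of RNA polymerase II, the Mediator kinase module and elongation factors, 1 (2.44%) rose and 3 (7.32%) fell. These shares were below the 10.0% and 9.55% of all genes, and the list's median was 0.028 beside 0.009. The falls included MED12 (-0.68 ± 0.067), which activates the Mediator kinase, and LARP7 (-0.67 ± 0.081), which holds the elongation kinase in the 7SK particle, and the rise was the Mediator kinase paralog CDK19 (0.58 ± 0.080).

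Genes of the cell cycle engine fell in part. Of 41 kinases, cyclins, RB and E2F genes, 7 (17.1%) fell and 3 (7.32%) rose (median -0.16), beside 9.55% and 10.0% of all genes. MYBL2, which turns on mitotic genes, fell to between 164 and 189 CPM with a median of 169.7 from 317, 311 and 304 CPM (-0.85 ± 0.040). E2F1 (-0.68 ± 0.042), CCNB1 (-0.56 ± 0.039), CDK1 (-0.55 ± 0.041) and the pocket protein gene RBL1 (-0.77 ± 0.048) fell too. CDK2 (-0.39 ± 0.046) and CDK6 (-0.40 ± 0.047) were lower in all 6 inhibitor libraries but stayed within the fold threshold. Within the fold threshold were also RB1 (-0.073 ± 0.044), CCNE2 (-0.22 ± 0.098), CCND1 (-0.068 ± 0.041) and CDK4 (-0.21 ± 0.046). With library size alone as the scale, CDK1 and CCNB1 were at -0.46 each and no longer called, and the values of CCND1 and RB1 turned to 0.025 and 0.021. The rises were the kinase inhibitor genes CDKN1A, which encodes p21, and CDKN2B (0.81 ± 0.11), and CCND2 (0.58 ± 0.041). CDKN1A stood at 35.7, 37.9 and 39.97 CPM with DMSO and between 53.6 and 63.7 CPM with a median of 58.1 with the inhibitors (0.61 ± 0.063, adjusted p = 2.04e-07), without overlap.

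DNA replication genes were lower as a group and none of them rose. Of 62 genes of origin licensing and the replication fork 20 (32.3%) fell (median -0.35). Of 20 genes of deoxynucleotide supply 7 (35.0%) fell (median -0.21), beside 9.55% lower and 10.0% higher of all genes. The helicase subunit gene MCM7 (ENSG00000166508, chromosome 7, 100092728 to 100101940) had 511, 513 and 491 CPM with DMSO and between 263 and 298 CPM with a median of 282 with the inhibitors (-0.84 ± 0.041, adjusted p = 1.25e-11). The lowest DMSO library thus lay above the highest inhibitor library. MCM2 (-0.77 ± 0.039), the polymerase alpha gene POLA1 (-0.82 ± 0.048) and CDC45 (-1.03 ± 0.061), which joins the helicase at the fork, fell as well. RRM2, the regulated subunit of ribonucleotide reductase, dropped from 132, 139 and 127 CPM to values between 46.9 and 60.5 CPM with a median of 55.04 (-1.29 ± 0.046, adjusted p = 3.94e-13). A readthrough gene model, AC007240.1, covers 81.0% of its span on the same strand and held 1.35% as many counts. The thymidylate kinase gene DTYMK changed by -0.67 ± 0.052, the dUTPase gene DUT by -0.57 ± 0.038 and the folate enzyme gene MTHFD1 by -0.54 ± 0.041. With library size alone DUT and MTHFD1 were inside the threshold (-0.47 and -0.44), and the deoxynucleotide list had 4 falls. Of the 53 promoters found for the replication list, 20 (37.7%) held the E2F letters shown above in POLA1, against 10.6% of all 10426 promoters matched.

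Genes of chromosome segregation followed the same direction. Of 72 spindle, kinetochore and checkpoint genes 17 (23.6%) fell and none rose (median -0.30). Of 18 condensin, cohesin and chromosome structure genes 8 (44.4%) fell and none rose (median -0.44). Of all genes 9.55% were called lower and 10.0% higher. CDC20 (ENSG00000117399, chromosome 1, 43358955 to 43363203), the activator of the anaphase-promoting complex, went from 419, 419 and 393 CPM with DMSO to between 195 and 241 CPM with a median of 218 (-0.91 ± 0.042, adjusted p = 7.50e-12). The kinesin gene KIF20A (-0.94 ± 0.047), the kinetochore gene ZWINT (-0.77 ± 0.038) and GTSE1 (-0.64 ± 0.038) fell too. Topoisomerase gene TOP2A had 621, 663 and 682 CPM with DMSO and between 246 and 373 CPM with a median of 319 with the inhibitors (-1.08 ± 0.049). The condensin genes NCAPH (-1.23 ± 0.045) and NCAPG (-0.96 ± 0.060) and the cohesin gene SMC1A (-0.81 ± 0.044) fell with it. MKI67, the gene of the proliferation antigen Ki-67, was lower in every inhibitor library but inside the fold threshold (-0.39 ± 0.050). Of 57 spindle promoters 37 (64.9%) held the cell cycle homology letters, against 9.27% of all promoters, 9.14% of those of genes that rose and 13.0% of those of genes that fell. In the spindle list no member differed between the compounds, and its median was -0.30 with YKL-5-124 and -0.31 with samuraciclib, measured against the same DMSO libraries.

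DNA repair genes were called only in the lower direction. Of 43 homologous recombination and Fanconi anemia genes 8 (18.6%) fell (median -0.23), and of 45 end-joining, mismatch and excision repair genes 5 (11.1%) fell (median -0.26), with no rise in either. The second share is near the 9.55% of all genes called lower. ATM, the kinase that signals double-strand breaks, stood at 113, 102 and 100.2 CPM with DMSO and between 47.6 and 62.8 CPM with a median of 53.2 with the inhibitors (-0.97 ± 0.053). FANCD2 (-0.68 ± 0.044), the central protein of the Fanconi pathway, and BRCA1 (-0.58 ± 0.044) fell, BRCA1 only just beyond the threshold and inside it with library size alone (-0.48). DDB2, which recognizes ultraviolet damage, fell by over 1 on the log2 scale (-1.10 ± 0.055).

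Histone transcripts moved opposite to the replication genes above. Of 67 replication-dependent histone genes listed, 41 passed the filter on low counts (median 1.08). Of these, 28 (68.3%) rose and 4 (9.76%) fell, beside 10.0% higher and 9.55% lower of all genes. Replication-dependent histone messages normally end in a stem-loop without a poly(A) tail, and the libraries were poly(A)-selected. The values therefore cover their polyadenylated fraction and not total histone mRNA. HIST1H2BK (ENSG00000197903, chromosome 6, 27146418 to 27146798) stood at 17.9, 17.04 and 17.1 CPM with DMSO and between 46.7 and 72.6 CPM with a median of 60.2 with the inhibitors, a 3.38-fold rise (1.76 ± 0.055, adjusted p = 1.38e-13). HIST1H2BJ (1.87 ± 0.10), HIST1H4I (1.83 ± 0.096), HIST2H2BE (1.64 ± 0.11) and HIST1H2AC (1.28 ± 0.049) rose with no overlap either. HIST1H2BH (-0.69 ± 0.077) and the scarce HIST2H2AC (-1.62 ± 0.24, 2.02 CPM on average) went down. Of the 4 falls, 2 were counted without DMSO 1, and HIST1H2AJ, at 0.971 CPM on average, was no longer called without DMSO 1 or DMSO 2. With a mean count of at least 50, 17 rises and 1 fall were counted. The list's median was 1.24 with YKL-5-124 and 0.81 with samuraciclib, and of the members called 9 differed between the compounds. Of 38 histone promoters matched, 23 (60.5%) held TATAAA and 32 (84.2%) held CCAAT, the pattern shown in HIST1H2BK, against 5.67% and 36.8% of all promoters.

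**Figure D3:**
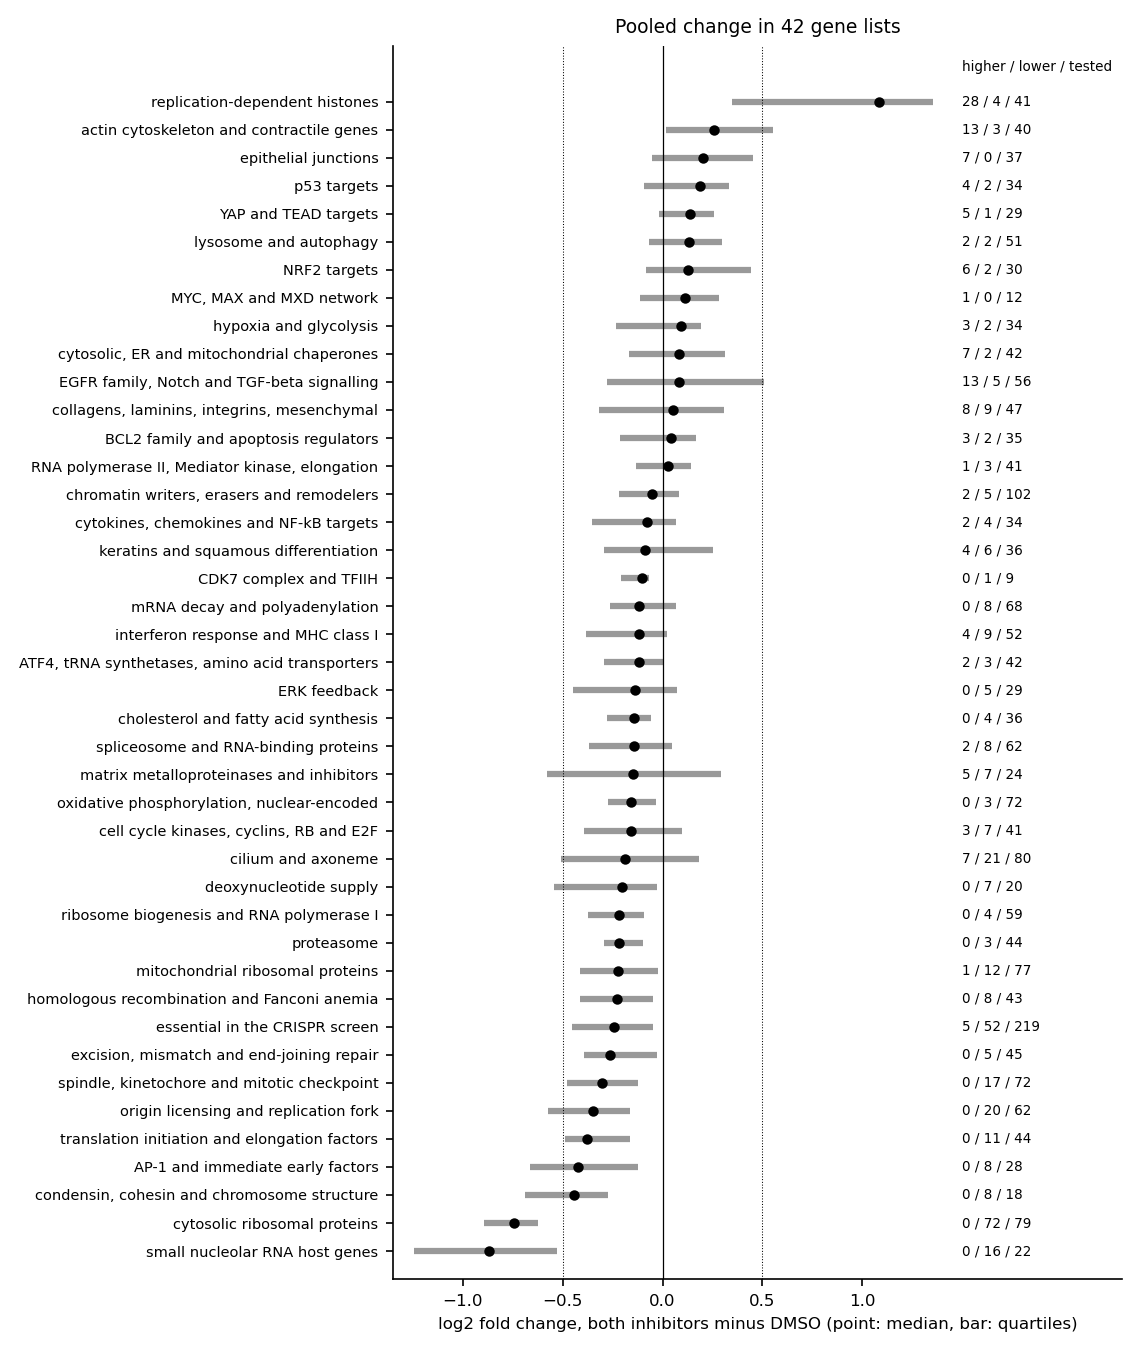
Median (point) and quartiles (bar) of the log2 fold change of both inhibitors minus DMSO over the tested members of 42 gene lists, with the numbers of members called higher, called lower and tested at the right. Small nucleolar RNA hosts and cytosolic ribosomal proteins lie lowest, with medians of -0.87 and -0.74, and replication-dependent histones highest at 1.08.

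Cytosolic ribosomal protein genes had the largest share of called members of the 42 lists. Of 79 genes 72 (91.1%) fell and none rose (median -0.74), beside 9.55% lower and 10.0% higher of all genes. Their summed level was 60958 to 64687 CPM with DMSO, 41977 to 44753 CPM with samuraciclib and 29557 to 32359 CPM with YKL-5-124. Every inhibitor library thus lay below every DMSO library, and those of YKL-5-124 below those of samuraciclib. RPL3 (ENSG00000100316, chromosome 22, 39312882 to 39320389), of the large subunit, stood at 1729, 1816 and 1708 CPM with DMSO, 1058, 1063 and 1049 with samuraciclib and 631, 689.8 and 673 with YKL-5-124 (-1.06 ± 0.039, adjusted p = 7.39e-13). RPLP0, of the stalk, changed by -1.05 ± 0.040, RPL21 by -1.01 ± 0.040 and RPL7A by -0.93 ± 0.037. The paralog RPL22L1 fell further (-1.41 ± 0.066). Of the 72 members called, 38 differed between the compounds. The size of the pooled change of a ribosomal protein gene is therefore for many members the average of a smaller and a larger fall.

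Of 44 initiation and elongation factors 11 fell and none rose (median -0.38), beside 9.55% lower of all genes. EEF1A1, the elongation factor that brings aminoacyl-tRNA to the ribosome, held 9829, 10614 and 11155 CPM with DMSO and between 4489.6 and 6553 CPM with a median of 5513 with the inhibitors (-0.97 ± 0.051). The poly(A)-binding protein gene PABPC4, at 501, 508 and 483 CPM with DMSO and between 201 and 306 CPM with a median of 253 with the inhibitors, fell with it. So did EIF2B2 (-0.97 ± 0.041), a subunit of the exchange factor of eIF2, and EIF3L (-0.69 ± 0.038). Of 59 genes of ribosome biogenesis and RNA polymerase I 4 (6.78%) fell, a share below that of all genes, among them NPM1 (-0.73 ± 0.043), which encodes nucleophosmin, and GNL3 (-0.85 ± 0.048), and without DMSO 2 the count was 2, as it was with library size alone. Small nucleolar RNA host genes, whose spliced transcripts carry these guide RNAs in their introns, fell in 16 of 22 cases (median -0.87). SNHG8 (ENSG00000269893, chromosome 4, 118278709 to 118279823) had 44.3, 46.8 and 34.5 CPM with DMSO and between 7.08 and 14.2 CPM with a median of 9.94 with the inhibitors, a 4.23-fold fall (-2.08 ± 0.096, adjusted p = 7.62e-12). SNHG7 (-1.42 ± 0.047), SNHG5 (-1.44 ± 0.049) and C6orf48 (-1.44 ± 0.058), whose span is covered to 99.1% by another gene model, fell as well.

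Changes in RNA processing genes were fewer and went both ways. Of 62 spliceosome and RNA-binding protein genes 8 fell and 2 rose. The FET family genes EWSR1 (-1.27 ± 0.045) and TAF15 (-1.27 ± 0.059) were among the falls, as was HNRNPA1 (-1.10 ± 0.043), whose span another gene model contains. AP2B1, on the same strand, overlaps 8.37% of the TAF15 span and held 209% as many counts, so reads may be shared. EWSR1 stood at 523, 539 and 542 CPM with DMSO and between 199 and 259 CPM with a median of 219 with the inhibitors. SNRPA1, of the U2 particle, rose instead, from 218, 226 and 216 CPM to values between 429 and 464 CPM with a median of 442 (1.02 ± 0.041), and PRPF3 rose by less (0.58 ± 0.045). Of 68 mRNA decay and polyadenylation genes 8 fell and none rose, among them SYMPK (-0.99 ± 0.043) and CPSF2 (-0.73 ± 0.039) of the 3' end processing machinery and the deadenylase gene PAN2 (-1.25 ± 0.090). Mitochondrial ribosomal protein genes fell in 12 of 77 cases, MRPS16 (-0.75 ± 0.040) among them, with 1 rise, and nuclear-encoded respiratory chain genes in 3 of 72. With library size alone these counts were 7 and 0. Of 44 proteasome genes 3 fell and of 102 chromatin regulators 5 fell and 2 rose, beside 9.55% lower and 10.0% higher of all genes.

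Part of the immediate early genes had lower levels. Of 28 AP-1 and immediate early factors 8 (28.6%) fell and none rose (median -0.42), beside 9.55% lower and 10.0% higher of all genes. EGR1 (ENSG00000120738, chromosome 5, 138465490 to 138469315), a zinc finger factor induced by serum, stood at 282, 273 and 373 CPM with DMSO and between 59.8 and 93.2 CPM with a median of 81.7 with the inhibitors, a 3.89-fold fall (-1.96 ± 0.10, adjusted p = 3.24e-11). FOS (ENSG00000170345, chromosome 14, 75278774 to 75282230) stood at 503, 549.5 and 707 CPM with DMSO and between 146 and 196 CPM with a median of 169.9 with the inhibitors (-1.77 ± 0.087, adjusted p = 1.60e-11). For both genes DMSO 3 was the highest library, and the highest inhibitor library lay below the lowest DMSO library. Their partner JUN (-1.13 ± 0.071) and IER3 (-0.60 ± 0.047) fell too, while MYC, also an immediate early gene, was lower in all 6 inhibitor libraries without passing the fold threshold (-0.23 ± 0.046). A list headed ERK feedback also held the cytokine gene IL24, the hormone gene STC1 and MCL1. Of its 29 genes tested 5 (17.2%) fell and none rose. Among the falls were the phosphatase gene DUSP1 (-1.10 ± 0.055) and STC1 (-1.45 ± 0.093), which encodes stanniocalcin. The cytokine gene IL24 fell to between 9.26 and 13.9 CPM with a median of 11.4 from 31.6, 32.1 and 32.4 CPM (-1.49 ± 0.066).

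Metalloproteinases and their inhibitors changed in both directions, 7 of 24 falling and 5 rising. MMP1 (ENSG00000196611, chromosome 11, 102789920 to 102798160), the interstitial collagenase, stood at 74.9, 73.2 and 66.9 CPM with DMSO, 17.4, 17.3 and 16.4 with samuraciclib and 24.7, 24.4 and 22.3 with YKL-5-124 (-1.83 ± 0.055, adjusted p = 1.38e-13, the smallest of the table, which it shared with others). MMP13, also a collagenase, changed by -1.52 ± 0.094 and the stromelysin gene MMP3 by -1.41 ± 0.097. Going up were the membrane-type enzymes MMP15 (0.95 ± 0.069) and MMP17 (0.71 ± 0.078) and the inhibitor gene TIMP3 (1.27 ± 0.17), at 3.28 CPM on average and inside the locus of SYN3 on the other strand. Without YKL-5-124 3 the rises were 3. Of 34 cytokine, chemokine and NF-kB target genes 4 (11.8%) fell and 2 (5.88%) rose, beside 9.55% and 10.0% of all genes. Among the falls were CXCL8 (-1.07 ± 0.058), IL11 (-2.06 ± 0.14) and IL6 (-1.67 ± 0.18), the last 2 at 4.18 and 3.20 CPM on average. CXCL8, which attracts neutrophils, had 104, 105 and 110.4 CPM with DMSO and between 41.6 and 60.8 CPM with a median of 49.1 with the inhibitors. Of 52 interferon response and MHC class I genes 9 (17.3%) fell and 4 (7.69%) rose. IFI44 (-1.15 ± 0.055) and IFITM3 (-0.76 ± 0.051) fell, and CD274, the gene of PD-L1, rose (0.88 ± 0.090) from 9.56, 8.47 and 9.64 CPM to values between 12.7 and 22.1 CPM with a median of 17.

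**Figure D4:**
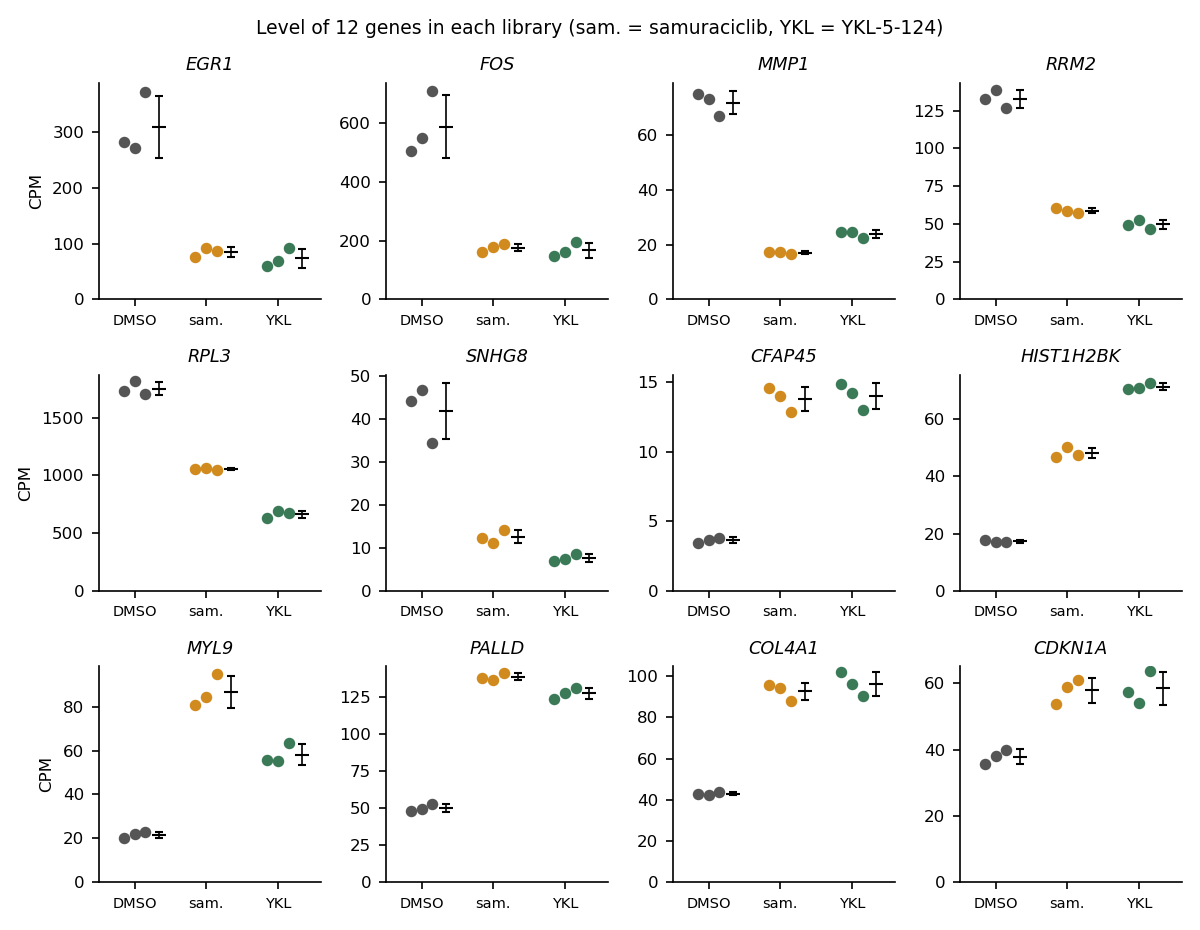
Level in CPM (vertical axes from 0) of 12 named genes in each of the 9 libraries by group, with the mean and SD of the 3 libraries beside the points. In all 12 genes the 6 inhibitor libraries lie on one side of the 3 DMSO libraries, lower for the top row and RPL3 and SNHG8 and higher for the rest; RPL3, HIST1H2BK and MYL9 are among those whose libraries also part the compounds from each other.

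Contractile genes were among those that rose. Of 40 actin cytoskeleton genes 13 (32.5%) rose and 3 fell (median 0.26), beside 10.0% higher of all genes. MYL9 (ENSG00000101335, chromosome 20, 36541484 to 36551447), the regulatory light chain of non-muscle myosin, stood at 20.3, 21.9 and 22.8 CPM with DMSO, 80.5, 84.4 and 94.7 with samuraciclib and 55.7, 55.1 and 63.5 with YKL-5-124 (1.70 ± 0.069, adjusted p = 1.78e-12). TAGLN, which encodes an actin-binding protein of smooth muscle, rose 2.96-fold (1.57 ± 0.085). PALLD, which organizes actin bundles, went from 47.96, 49.6 and 53.1 CPM to values between 123 and 141 CPM with a median of 134 (1.40 ± 0.046, adjusted p = 1.84e-13). MYL12A (0.90 ± 0.045) rose as well, whereas cytoplasmic gamma-actin ACTG1 (-0.51 ± 0.034) and the myosin heavy chain gene MYH10 (-0.56 ± 0.043) fell by little more than the threshold and were inside it with library size alone (-0.42 and -0.46), ACTG1 also without DMSO 3 (-0.4955). Of 36 actin promoters matched, 7 (19.4%) held a CArG box, against 1.12% of all promoters and 2.38% of those of genes that rose. Of 29 YAP and TEAD targets 5 rose and 1, the receptor gene AXL (-0.56 ± 0.043), fell. TUFT1 (1.39 ± 0.057), IGFBP3 (1.04 ± 0.059), which binds insulin-like growth factors, and TGFB2 (1.21 ± 0.095) were among the rises.

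Of 37 epithelial junction genes 7 (18.9%) rose and none fell (median 0.20). CDH1, the gene of E-cadherin, stood at 185, 183 and 199 CPM with DMSO and between 324 and 385 CPM with a median of 352 with the inhibitors (0.90 ± 0.042). P-cadherin gene CDH3 (0.55 ± 0.041), periplakin gene PPL (0.56 ± 0.043) and plakophilin gene PKP2 (0.52 ± 0.043) rose by about the threshold, and with library size alone 11 members were called. Of 36 keratin and squamous differentiation genes 4 rose and 6 fell. KRT17, a keratin of activated epidermis, rose (0.60 ± 0.040) and KRT15 (-0.85 ± 0.053), a keratin of basal cells, fell, as did the kallikrein genes KLK6 (-1.12 ± 0.062) and KLK10 (-1.31 ± 0.077). Of 47 collagen, laminin, integrin and mesenchymal genes 8 rose and 9 fell. COL4A1, of basement membrane collagen, went from 42.8, 42.6 and 43.7 CPM to values between 87.7 and 102 CPM with a median of 94.97 (1.13 ± 0.051). ITGAV (0.81 ± 0.048) and FN1 (0.76 ± 0.046) rose with it, and the hemidesmosome collagen gene COL17A1 fell (-0.62 ± 0.039). COL27A1, a fibrillar collagen gene outside this group of rises, fell by -1.42 ± 0.055. Of 56 EGFR family, Notch and TGF-beta genes 13 (23.2%) rose and 5 (8.93%) fell, beside 10.0% and 9.55% of all genes. IGFBP3 and TGFB2, named above, were among the rises, and HES1 (-0.92 ± 0.044), MFNG (-1.19 ± 0.071) and ID1 (-0.78 ± 0.050) among the falls.

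Over the p53, BCL2 family, chaperone and NRF2 lists the share called higher ranged from 8.57% of the BCL2 family and apoptosis genes to 20.0% of NRF2 targets, beside 10.0% of all genes. Of 34 p53 targets 4 (11.8%) rose, CDKN1A and ZMAT3 (0.79 ± 0.079) among them, and 2 fell, DDB2 and PMAIP1 (-0.75 ± 0.066). Of 35 BCL2 family and apoptosis genes 3 rose and 2 fell: BCL2L2 fell (-0.80 ± 0.044), while MCL1 (-0.47 ± 0.044) and BCL2L1 (0.40 ± 0.047) stayed within the threshold in opposite directions. Of 42 chaperone genes 7 (16.7%) rose, among them HSPA2 (1.23 ± 0.069), HSPA1A (1.19 ± 0.086) and the co-chaperone gene BAG3 (0.81 ± 0.050), and 2 fell, the mitochondrial protease gene LONP1 (-0.92 ± 0.050) and the mitochondrial chaperonin gene HSPD1 (-0.55 ± 0.041). HSPA1A is a near-identical copy of a neighboring gene, so its counts are uncertain. Of 30 NRF2 targets 6 rose, with the glutathione synthesis gene GCLC at 0.66 ± 0.039 and TXNRD1 at 0.62 ± 0.042, and 2 fell, both transporters: ABCC1 (-0.81 ± 0.041) and ABCC2 (-0.70 ± 0.11). ATF4, the factor of the integrated stress response, fell (-0.65 ± 0.037), as did DDIT4 (-0.97 ± 0.043), and the cystine transporter gene SLC7A11 rose (0.55 ± 0.048). In cholesterol and fatty acid synthesis 4 of 36 genes (11.1%) fell, beside 9.55% of all genes. Among them was INSIG1 (-0.80 ± 0.039), which restrains sterol synthesis.

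Of 34 hypoxia and glycolysis genes 3 rose, the prolyl hydroxylase genes P4HA2 (1.09 ± 0.074) and EGLN3 (1.24 ± 0.096) and EPAS1 (0.54 ± 0.043), and 2 fell. SPTSSA, on the same strand, overlaps 5.49% of the EGLN3 span and held 578% as many counts, so reads may be shared. Of 51 lysosome and autophagy genes 2 rose, LGMN (0.63 ± 0.038) with them, and 2 fell. Of 12 genes of the MYC, MAX and MXD network 1 rose, the repressor gene MXD4 (0.75 ± 0.10). Of 80 cilium and axoneme genes 21 fell, with DYNC2H1 (-0.89 ± 0.043), the motor of transport inside cilia, and CEP164 (-0.61 ± 0.048), and 7 rose, a count of 2 to 4 without any one of DMSO 1, DMSO 2, DMSO 3, samuraciclib 2, YKL-5-124 1 or YKL-5-124 2. CFAP45 (ENSG00000213085, chromosome 1, 159872364 to 159900163), a gene of the microtubules of motile cilia, had nonetheless the largest rise among protein-coding genes of at least 10 CPM, from 3.43, 3.67 and 3.84 CPM to values between 12.9 and 14.9 CPM with a median of 14.1 (1.92 ± 0.10, adjusted p = 4.21e-11). In a list of genes essential to every line of a CRISPR screen of head and neck cancer lines, 219 genes were tested, of which 52 (23.7%) fell and 5 (2.28%) rose, beside 9.55% and 10.0% of all genes. That list holds ribosomal protein genes and TOP2A, which are members of lists above.

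Further single genes complete the largest changes. LRSAM1, a ubiquitin ligase gene, fell from 31.9, 32.9 and 31.2 CPM to values between 9.95 and 11.2 CPM with a median of 10.5 (-1.61 ± 0.067). SPOCK1 (-1.30 ± 0.073), a proteoglycan gene, and the zinc finger gene ZBTB37 (-1.29 ± 0.085) fell too. GAS5, on the other strand, overlaps 2.26% of the ZBTB37 span and held 819% as many counts, so reads may be shared. JPH2, which ties the plasma membrane to the endoplasmic reticulum, rose from 17.3, 20.8 and 18.8 CPM to values between 53.2 and 75.4 CPM with a median of 61.7 (1.73 ± 0.077). CCDC92 (1.57 ± 0.091), the sulfatase gene ARSD (1.46 ± 0.081), the translational repressor gene NANOS1 (1.33 ± 0.11) and the mitochondrial isocitrate dehydrogenase gene IDH2 (1.30 ± 0.062) rose as well. EIF3A, on the other strand, overlaps 1.57% of the NANOS1 span and held 2970% as many counts, so reads may be shared there too. Among genes that are neither protein-coding nor pseudogenes, MIR31HG, a long RNA that hosts a microRNA, rose (1.39 ± 0.13) from 4.46, 4.63 and 5.01 CPM to values between 9.26 and 15.3 CPM with a median of 13.5. AC004233.3 (1.88 ± 0.15) rose too, and AC012615.6 (1.69 ± 0.15) and AL928654.4 (1.53 ± 0.10) lie wholly inside REXO1 and PACS2, whose reads they may hold. LRRC75A-AS1 (-1.79 ± 0.055), which hosts small nucleolar RNAs, fell from 276, 283 and 311 CPM to values between 64.3 and 105 CPM with a median of 83.9, and DLEU2 (-1.63 ± 0.083) fell with it.

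Whether the pooled change stands for both compounds was asked with the difference YKL-5-124 minus samuraciclib, which uses no DMSO library. There was 1 pair of compounds, at the same dose and time, and p-values were adjusted over all 16065 genes. Set against the shared DMSO libraries one at a time, YKL-5-124 had 11.9% of all genes called higher and 9.93% lower, and samuraciclib 8.17% and 9.55%. The compounds differed at 1111 genes (6.92% of those tested), and at 442 (14.0%) of the 3146 genes called in the pooled contrast. Among rises the change was larger with YKL-5-124 at 176 genes and with samuraciclib at 42, and among falls at 142 and 82. For 1168 called genes (37.1%) the 95% interval of the difference lay within 0.5 either way, as it did for 57.9% of all genes tested, and for 343 it lay within 0.25. For the other 1536 called genes neither held, and the libraries did not settle how far the compounds differed. A difference was called from a test against no difference with an estimate beyond 0.5, so the gap at the 442 genes can be smaller. With the stricter glmTreat test of both contrasts against the fold threshold, 35 genes were called and differed.

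**Figure D5:**
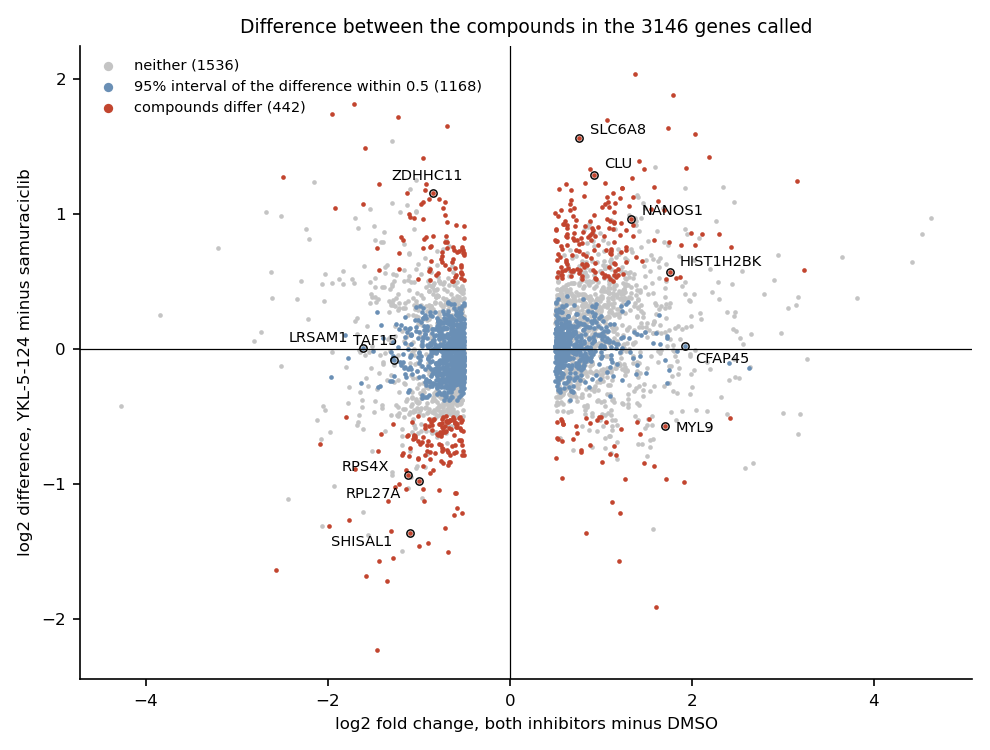
Difference YKL-5-124 minus samuraciclib on the log2 scale (vertical axis) against the pooled change of both inhibitors minus DMSO (horizontal axis) for the 3146 genes called, colored by whether the compounds differed (442 genes), whether the 95% interval of the difference lay within 0.5 (1168) or neither (1536). LRSAM1, TAF15 and CFAP45 lie close to 0 on the vertical axis, and SLC6A8, CLU, SHISAL1 and RPL27A far from it.

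Named genes with the narrowest agreement included CFAP45, LRSAM1, PALLD and TAF15. LRSAM1 changed by -1.61 ± 0.081 with YKL-5-124 and -1.61 ± 0.081 with samuraciclib, both measured against the same DMSO libraries, and the interval of their difference ran from -0.18 to 0.19. For TAF15 it ran from -0.23 to 0.070, for CFAP45 from -0.18 to 0.22 and for PALLD from -0.22 to -0.021, wholly on the negative side. ZNF114 (-1.28 ± 0.064) and EPPK1 (1.19 ± 0.085), which encodes epiplakin, were of this kind too, as were IFI44, COL4A1 and TGFB2.

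At the other end, a pooled call could come from 1 compound. SLC6A8, the creatine transporter gene, stood at 7.96, 8.36 and 8.59 CPM with DMSO, 8.14, 7.29 and 9.302 with samuraciclib and 24.98, 24.6 and 23.3 with YKL-5-124, so its pooled rise (0.76 ± 0.091) was carried by YKL-5-124 (difference 1.56 ± 0.098, adjusted p = 8.29e-09). TLCD1 showed the same pattern (difference 1.22 ± 0.095), and 56.8% of its span is covered by NEK8 on the other strand. CLU, which encodes the secreted chaperone clusterin, had 52.9, 55.98 and 61.1 CPM with DMSO, 66.1, 68.2 and 72.5 with samuraciclib and 164, 164 and 177 with YKL-5-124 (difference 1.29 ± 0.058). SHISAL1 (-1.37 ± 0.14), RPL27A (-0.98 ± 0.063) and RPS4X (-0.94 ± 0.055) fell further with YKL-5-124, and NANOS1 rose further (0.96 ± 0.11). ZDHHC11 fell further with samuraciclib, from 17.4, 14.1 and 16.5 CPM with DMSO to 4.54, 6.43 and 6.99, against 14.4, 12.1 and 13.6 with YKL-5-124 (difference 1.16 ± 0.14). The pooled value of CYSRT1 was 0.014 ± 0.086, made of 0.53 ± 0.096 with YKL-5-124 and -0.51 ± 0.10 with samuraciclib (difference 1.04 ± 0.099, adjusted p = 1.06e-06). Its levels were 20.4, 21.1 and 20.5 CPM with DMSO, 15.1, 14.3 and 14.3 with samuraciclib and 28.2, 26.3 and 35.7 with YKL-5-124, 3 groups that did not overlap. Such opposite calls against the shared DMSO libraries were made for 3 genes.

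Motif shares over all promoters are given beside those of the lists above. The CArG box was found in 1.12% of all promoters, in 2.38% of those of rises and in 1.29% of those of falls, and the cell cycle homology letters in 9.27%, 9.14% and 13.0%. CCAAT was found in 36.8% of the 10426 promoters matched, in 38.7% of the 799 of genes that rose and in 37.3% of the 931 of genes that fell. The AP-1 letters stood in 4.34%, 5.26% and 5.16%, and the cyclic AMP element in 11.7%, 12.8% and 11.7%. TATAAA was found in 5.67% of all, 7.51% of rises and 8.7% of falls, and the E2F letters in 10.6%, 9.51% and 11.1%. The median GC content of the 300 bases was 66.3% for rises, 62.7% for falls and 65.3% for all. Protein-coding genes that rose spanned a median of 35.96 kb and those that fell 24.0 kb, against 33.3 kb for all.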

How the data were processed

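Poly(A)-selected RNA of 9 FaDu cultures was sequenced in read pairs. The authors aligned reads to GRCh38 with HISAT2 and deposited whole-number read counts per gene from featureCounts 2.0.6, without normalization; the annotation release and strand setting are not given in the sources used here. Counts of 16065 genes kept by filterByExpr (edgeR 4.0.16, R 4.3.3) were scaled by TMM and fitted with glmQLFit in 1 model of 3 groups, without covariates. The pooled contrast (weights 0.5, 0.5 and -1) and YKL-5-124 minus samuraciclib were tested two-sided with glmQLFTest and Benjamini-Hochberg adjustment over all genes, and an SE is the change divided by the square root of F. The thresholds are those the study gives for its volcano plots of each compound. For genes common to both compounds the study used a stricter adjusted p. The libraries held 18096180 to 28018126 counts, and the biological coefficient of variation was 0.0631. Replicates are separate samples by the labels, and p-values measure only the spread between these samples. Within groups r of log CPM across genes was 0.991 to 0.993.

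The members, gene lists and motifs were chosen with earlier results of these data known. Named genes are, with at least 10 CPM (5 CPM for non-coding genes) and no overlap of groups, the 15 largest protein-coding rises and falls and the 5 largest non-coding ones; up to 4 members of each of 46 lists by adjusted p, with up to 3 called against the majority; 15 genes of CDK7 and the cell cycle; the 8 that differed most and 10 that differed least between compounds; and those called in opposite directions. Some were left out for room, and a few are not reported here. RefSeq promoters (GRCh38.p14, 250 bases before to 50 after the start) were matched for 10426 of 12874 protein-coding genes, by symbol, chromosome and strand; MYL9 and TAGLN were not matched. In simulated counts of 16065 genes, 200 genes above a minimum mean count were changed equally with both inhibitors. For the pooled contrast 83.6% of 1.5-fold, 94% of 2-fold and 100% of 4-fold changes were recovered, with 1 false call. The recovered shares do not cover genes of lower counts. Alternatives covered the scaling, the filter, the thresholds, DESeq2 1.42.0, glmTreat, the replicate block, the libraries low in 7SL RNA and each library left out in turn. Python 3.11.15 with numpy 2.4.6, pandas 2.3.3 and matplotlib 3.10.9 made summaries and figures.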

Additional observations from a re-analysis of the deposited data

Results flagged for a closer look

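The change against DMSO differed between YKL-5-124 and samuraciclib at 442 of the genes called in the pooled contrast, by edgeR's quasi-likelihood test of the difference between the compounds, and 33 of the genes named here (CYSRT1, which was not called, included) were past its thresholds. Differences are YKL-5-124 minus samuraciclib on the log2 scale. Their causes were not tested.

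Among ribosomal and related genes that fell, the value was lower with YKL-5-124 in each: RPL27A (-0.98), RPS4X (-0.94), RPL21 (-0.82), RPL3 (-0.67), RPLP0 (-0.64), the paralog RPL22L1 (-0.64) and PABPC4 (-0.50). The small nucleolar RNA hosts SNHG5 (-0.76), SNHG8 (-0.71) and LRRC75A-AS1 (-0.51), and SHISAL1 (-1.37), were lower with it too. Falls that were larger with samuraciclib were those of ZDHHC11 (1.16), IL1RL1 (1.27), MFNG (0.83) and LONP1 (0.82).

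Among rises, the value was higher with YKL-5-124 for SLC6A8 (1.56), CLU (1.29), TLCD1 (1.22), NANOS1 (0.96), AC004233.3 (0.77), ARSD (0.65), TIMP3 (0.64), OVGP1 (0.59), HSPA1A (0.55) and MMP15 (0.51). The histone genes HIST1H2BK (0.57), HIST1H2BJ (0.53) and HIST1H4I (0.52) were higher with YKL-5-124 as well. Samuraciclib gave the larger rise of MYL9 (-0.57), CD274 (-0.55), CCND2 (-0.54) and AL928654.4 (-0.52). CYSRT1 differed by 1.04, with opposite changes against DMSO.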

How the results depend on the processing

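The numbers of genes called higher (1612), called lower (1534) and called with a difference between the compounds (442) kept within 1.5 times under most alternatives. Exceptions were a mean count of at least 50, with 950 higher because fewer genes (12029) were tested, and the thresholds themselves. The stricter glmTreat test against the fold threshold gave 569 higher, 716 lower and 35 that differed, no fold threshold 3930 and 4260, and a log2 change beyond 1 gave 613, 348 and 161. Called with each compound on its own, against the shared DMSO libraries, were 901 higher and 928 lower. Leaving out each library in turn gave 1365 to 1583 higher, 1446 to 1535 lower and 352 to 406 that differed, and the 6 libraries high in 7SL RNA gave 1356, 1498 and 361. DESeq2 called 1455 higher and 1471 lower, and 2923 of its 2926 calls were calls of the main test in the same direction. No gene called turned its sign under these alternatives. Deviations from group means correlated at r between -0.056 and 0.173 for same-numbered libraries and between -0.119 and 0.148 for others. The largest r were among the libraries low in 7SL RNA. They were 0.173 (samuraciclib 2 with YKL-5-124 2), 0.148 (DMSO 3 with YKL-5-124 2) and 0.146 (DMSO 3 with samuraciclib 2). Whether the numbers pair the samples was not settled. With the replicate number as a block 1583 genes were higher, 1541 lower and 440 differed.

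Of the single genes named, the values of CCND1 (0.025), MNAT1 (0.018) and RB1 (0.021), none of them called, turned with library size alone, and CYSRT1 ran from -0.056 without YKL-5-124 3 to 0.0599 without YKL-5-124 2. AXL (-0.47) and HSPD1 (-0.45) were among 9 calls lost with library size alone, and SLC6A8, TLCD1 and ZDHHC11 lost theirs with the 6 inhibitor libraries as 1 group, where the gap between the compounds counts as spread. MCL1 passed without DMSO 1 (-0.501). With the stricter glmTreat test against the fold threshold many named genes close to it were no longer called. Among them were CDKN1A (adjusted p = 0.117), CDK1 (0.291), CCNB1 (0.226), CCND2 (0.089) and BRCA1 (0.148). A call in the main test is against no change, so these genes were not shown to exceed the threshold. Of 950 list counts recomputed, 64 moved by over 1.5 times. Depth limited the precision of low genes, with a median SE of 0.37 below 1 CPM, and 1 line, dose and time limit what the comparison covers.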

Other observations

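A few protein-coding genes below 10 CPM changed more than those named by the rule, and they were chosen here after their values were seen. IL1RL1, the receptor gene for interleukin 33, stood at 18.3, 18.3 and 18.8 CPM with DMSO, 2.39, 2.28 and 1.64 with samuraciclib and 5.203, 5.13 and 5.01 with YKL-5-124 (-2.49 ± 0.097). OVGP1, which encodes a secreted glycoprotein of the oviduct, stood at 0.858, 0.746 and 1.09 CPM with DMSO, 5.29, 8.75 and 7.195 with samuraciclib and 10.4, 10.5 and 11.04 with YKL-5-124 (3.23 ± 0.19). GBP2, an interferon-induced guanylate-binding protein gene, rose from 0.801, 1.17 and 0.753 CPM to values between 3.697 and 5.34 CPM with a median of 4.58 (2.32 ± 0.18), while most interferon response genes called were lower. In these genes all 6 inhibitor libraries lay on one side of all 3 DMSO libraries. BOLA2B, one of a pair of near-identical copies, had 2.404, 67.7 and 2.41 CPM with DMSO and between 1.08 and 2.08 CPM with a median of 1.73 with the inhibitors, so its pooled value (-3.84 ± 0.74) rested on DMSO 2 and was -0.55, with an adjusted p of 0.0831 by edgeR, without that library.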
